A study of Mus musculus with 4 samples.

Results

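The genes described here encode the factors that start and carry out protein synthesis on cytosolic ribosomes, together with the enzymes and binding proteins that share their names. They were taken by name, as the protein-coding genes whose mouse symbol begins Eif1 to Eif6 or Eef. This gave 72 genes, of which 71 lie on chromosomes 1 to 19 and X, out of 21627 protein-coding genes there. Among the 71 genes, 51 encode the factors themselves, and the others are kinases, methyltransferases, binding proteins and relatives with other roles. Eif2s3y, the copy on the Y chromosome, had no gene-end peak in any list and was set aside with that chromosome. A gene-end peak was a peak within 1 kb of either end of the gene, with its fold enrichment over local background and its −log10 q-value as the authors deposited them.

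Open chromatin had been profiled by ATAC-seq, which reads where the transposase Tn5 can cut, in CD8+ T cells from the Balb/c strain, called tumour-infiltrating in the series title. The 4 libraries were stimulated phenelzine, stimulated untreated, unstimulated phenelzine and unstimulated untreated, with 1 library each and no replicates, and no test between conditions was made. Stimulated cells had 2 h of PMA and ionomycin, which together mimic antigen receptor signals, and phenelzine is an antidepressant that blocks monoamine oxidases and the histone demethylase LSD1. The sources used here do not give the age of the mice, the tumour, how the cells were sorted, or the dose and timing of phenelzine.

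The stimulated phenelzine list held 9322 peaks on chromosomes 1 to 19 and X, the stimulated untreated list 10405, the unstimulated phenelzine list 7929 and the unstimulated untreated list 6519. Read totals are not in the lists, so the depth is unknown, and a gene without a peak is one at which no peak was called, not one shown to be closed. Fewer cells of a type and less accessible DNA per cell cannot be told apart in such lists. Of 7 T cell markers, Cd3d alone had a gene-end peak, in the stimulated untreated and unstimulated phenelzine lists, and Cd8a and Cd8b1 had none in any list. Of 22 markers of B, myeloid, CD4, NK, epithelial and stromal cells, Cd14 alone had a gene-end peak, in the stimulated untreated list.

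Translation begins when eIF2 brings the initiator tRNA to the small ribosomal subunit, eIF3, eIF1 and eIF1A hold that subunit ready, and the cap-binding complex eIF4F (eIF4E, eIF4A and eIF4G) loads the messenger RNA. eIF5 and eIF5B then act in start site recognition and joining of the large subunit, and the elongation factors eEF1 and eEF2 deliver each aminoacyl-tRNA and move the ribosome along. Activated T cells raise protein synthesis, in part through mTORC1, which phosphorylates eIF4E-binding proteins and so frees eIF4E. Peak lists do not measure such steps.

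Promoters are shown for 7 genes. Eif2s2, Eif3a, Eif4e and Eif2ak3 carried start-site peaks among the strongest of their groups, Eef2 had its stronger peak at the other end of the gene, and Eif2d and Eif4a2 had peaks within 1 kb in the stimulated lists alone. Each sequence runs 5′ to 3′ from 150 bases before the annotated start through its first 30 bases, taken from RefSeq for GRCm38.p6, which has the mm10 coordinates. Capitals mark letters of the motifs searched, which are given after the sequences.
Eif2s2 (chr2:154892877-154893056, minus strand): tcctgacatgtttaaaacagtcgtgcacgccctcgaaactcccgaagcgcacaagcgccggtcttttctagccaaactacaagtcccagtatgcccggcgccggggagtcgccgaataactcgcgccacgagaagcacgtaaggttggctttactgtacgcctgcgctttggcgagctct
Eif3a (chr19:60790664-60790843, minus strand): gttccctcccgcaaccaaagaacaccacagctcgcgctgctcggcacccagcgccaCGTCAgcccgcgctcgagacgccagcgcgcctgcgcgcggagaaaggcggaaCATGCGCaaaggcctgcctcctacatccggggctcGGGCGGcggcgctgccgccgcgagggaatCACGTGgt
Eif4e (chr3:138527118-138527297, plus strand): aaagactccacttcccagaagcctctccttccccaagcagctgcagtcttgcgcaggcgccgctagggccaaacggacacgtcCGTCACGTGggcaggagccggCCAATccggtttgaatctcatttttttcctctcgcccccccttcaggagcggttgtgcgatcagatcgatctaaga
Eif2ak3 (chr6:70844365-70844544, plus strand): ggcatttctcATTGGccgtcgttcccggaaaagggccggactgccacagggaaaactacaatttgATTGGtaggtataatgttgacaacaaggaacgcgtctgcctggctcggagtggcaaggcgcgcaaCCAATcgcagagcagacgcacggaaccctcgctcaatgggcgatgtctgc
Eef2 (chr10:81176481-81176660, plus strand): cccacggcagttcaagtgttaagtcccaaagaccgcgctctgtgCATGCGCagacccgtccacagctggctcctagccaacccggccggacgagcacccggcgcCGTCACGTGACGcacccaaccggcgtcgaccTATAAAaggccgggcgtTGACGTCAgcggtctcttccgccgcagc
Eif2d (chr1:131153057-131153236, plus strand): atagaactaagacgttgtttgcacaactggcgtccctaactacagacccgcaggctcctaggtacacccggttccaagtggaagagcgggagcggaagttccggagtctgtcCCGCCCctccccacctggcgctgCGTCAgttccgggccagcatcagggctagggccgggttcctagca
Eif4a2 (chr16:23107318-23107497, plus strand): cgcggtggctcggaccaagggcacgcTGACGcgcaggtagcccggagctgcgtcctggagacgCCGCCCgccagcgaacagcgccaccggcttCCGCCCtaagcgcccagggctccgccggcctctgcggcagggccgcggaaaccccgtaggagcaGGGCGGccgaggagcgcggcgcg

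The 9 motifs searched on both strands were the ETS core CCGGAAG, the Sp/KLF GC box GGGCGG, the CCAAT box CCAAT, the Myc/Max E-box CACGTG, the AP-1 site TGANTCA, the CRE core TGACG, the NRF1 core GCGCATG, the YY1 letters AAGATGG and the TATA box TATAAA. In the Eif4e and Eef2 promoters the E-box overlapped a CRE core, and in the Eif2ak3 promoter the capitals are 3 CCAAT boxes. None of the 9 motifs lay in the printed stretch of Eif2s2, which says only that these letters are not in that window. A peak covered 60 of the 180 printed bases of Eif2s2 in the stimulated phenelzine list, 137 in stimulated untreated, 131 in unstimulated phenelzine and 111 in unstimulated untreated. All 180 bases of Eif2ak3 were covered in every list. At Eef2 the covered stretch was 132, 167 and 156 bases in the stimulated phenelzine, stimulated untreated and unstimulated phenelzine lists, and 0 in the unstimulated untreated list.

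A promoter was at hand for 55 of the 71 genes and for 17273 of all genes, read over 250 bases before and 50 from the outermost annotated start. Eef1akmt4 and the readthrough gene Eef1akmt4-ece2 have the same start, and their promoter is counted for each of them. This holds for the 55 and for the GC box, E-box, CRE core and CCAAT box counts. For Eif4e that is the upstream start, at position 138526191, whose window holds none of the 9 motifs, so the shares count Eif4e without the motifs in the printed downstream promoter. The GC box was in 40 of the 55 promoters (72.7%), against 46.9% of all promoters and 68.9% of the 6244 promoters of genes that any list held by a gene end. For the E-box the count was 13 (23.6%), against 8.01% and 11.5%. The ETS core was in 15 (27.3%), against 12.1% and 23.2%, and the CRE core in 22 (40.0%), against 24.0% and 37.8%. The CCAAT box was in 18 (32.7%), against 39.6% and 44.5%. AP-1 letters were in 5 promoters (9.09%, against 7.09% and 4.10%), NRF1 in 7 (12.7%, against 4.92% and 9.71%), YY1 in 6 (10.9%, against 6.40% and 8.46%) and the TATA box in 4 (7.27%, against 13.4% and 6.36%). The like set for the 6244 promoters is the 46 of the 55 whose genes had a gene-end peak, with both Eef1akmt4 genes counted. Of these 46, the GC box was in 76.1%, the E-box in 26.1%, the ETS core in 28.3% and the CRE core in 43.5%. The CCAAT box was in 34.8%, AP-1 letters in 10.9%, NRF1 in 15.2%, YY1 in 13.0% and the TATA box in 8.70%. Matches of letters are a description and do not show that a factor was bound.

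Most of these genes had accessible ends. A gene-end peak was called for 59 of the 71 genes in any list (83.1%, exact 95% interval 72.3 to 91.0, counting error only), against 34.9% of all protein-coding genes. By list, 48 of the 71 genes (67.6%) had one in stimulated phenelzine cells, 52 (73.2%) in stimulated untreated cells, 49 (69.0%) in unstimulated phenelzine cells and 40 (56.3%) in unstimulated untreated cells. Over all genes the shares were 27.4%, 29.3%, 25.6% and 23.0% in the same order. The unstimulated untreated list, the shortest, gave the lowest share both for these genes and for all genes. With each list reduced to its 6519 strongest peaks, it held 40 of the 71 genes. The stimulated phenelzine list then also held 40, stimulated untreated 42 and unstimulated phenelzine 47. Over all genes the shares were then 23.4%, 23.7% and 23.2% in these lists, and 23.0% in the unstimulated untreated list. At −log10 q 3 or more stimulated phenelzine was the lowest for these genes, with 25 (35.2%, against 16.9% of all genes). Unstimulated untreated then held 30 (42.3%, against 14.0%). A gene-end peak in all 4 lists was found for 31 genes (43.7%), against 17.7% of all genes. With peaks of −log10 q 3 or more alone it was 18 genes (25.4%), against 7.78%. The others were in 3 lists (14 genes, 19.7%, against 6.25%), in 2 lists (9 genes, 12.7%, against 4.75%) or in 1 list (5 genes, 7.04%, against 6.17%). Of the genes that any list held, those in all 4 made up 52.5% (39.1 to 65.7) of the Eif and Eef genes and 50.8% of all genes.

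Cytosolic ribosomal protein genes and aminoacyl-tRNA synthetase genes, which serve the same process, gave similar counts. Of 89 ribosomal protein genes, 69, 68, 64 and 56 had a gene-end peak in the stimulated phenelzine, stimulated untreated, unstimulated phenelzine and unstimulated untreated lists, and 74 (83.1%) in any list. Of 20 synthetase genes, which load amino acids onto tRNAs, the counts were 16, 17, 16 and 11, with 18 (90.0%) in any list. The mTORC1 pathway, which controls eIF4E-binding proteins, had 17 of 18 genes in any list, and the integrated stress response, which follows eIF2 phosphorylation, had 6 of 7. Termination and recycling genes had 7 of 8, and poly(A)-binding and MNK kinase genes 6 of 10. Any list held 34.9% of all genes. The intervals of the Eif and Eef, ribosomal protein and synthetase genes overlapped in every list, and their differences were not tested.

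**Figure D1:**
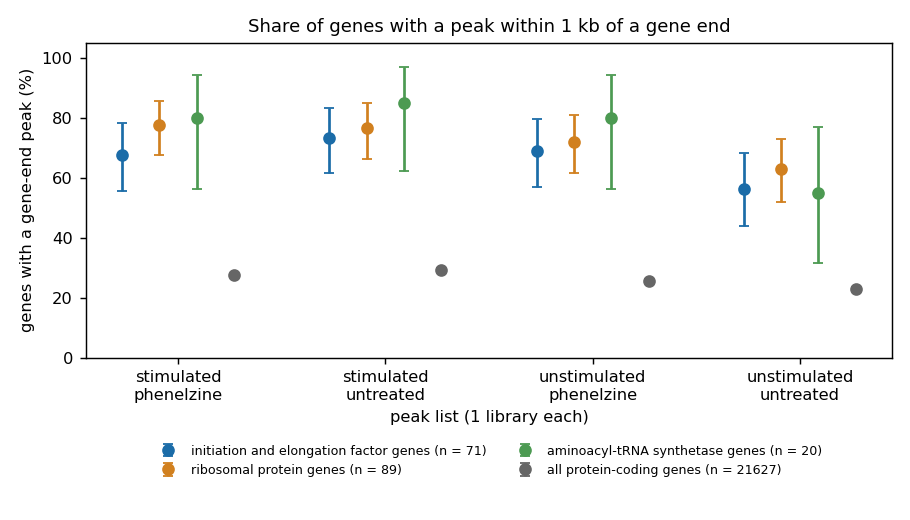
Share of genes with a gene-end peak (y axis, %) in each of the 4 lists (x axis) for initiation and elongation factor genes, ribosomal protein genes, aminoacyl-tRNA synthetase genes and all protein-coding genes. Points are shares and bars exact 95% intervals for counting error, and the Eif and Eef genes lie between 56.3% and 73.2% where all genes lie between 23.0% and 29.3%.

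Peaks sat at the annotated starts, with their median midpoints just upstream. Where the promoter table gave the strand, 43 of 44 placed peaks in the stimulated phenelzine list lay nearer to a start than to the 3′ end, as did 41 of 42 in stimulated untreated, 44 of 45 in unstimulated phenelzine and 33 of 34 in unstimulated untreated. The exception in each list was the peak downstream of Eef2, the translocase gene described further on. The median midpoint of the start peaks was at −51, −66, −86 and −60 bp from the nearest annotated start in the same order of lists. An annotated start was covered by 26 of 43, 33 of 41, 26 of 44 and 19 of 33 of these peaks. Median widths at these genes were 182, 203, 199 and 172 bp, where the lists as wholes had 140, 150, 142 and 139 bp. The lists as wholes include peaks away from gene ends. Of the 59 genes with a gene-end peak, 19 had a peak that also lay within 1 kb of another protein-coding gene, and for 6 another gene's end was always the nearer one. Placement, width and sharing were not measured at the ends of all genes, so none is shown to be particular to these genes.

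**Figure D2:**
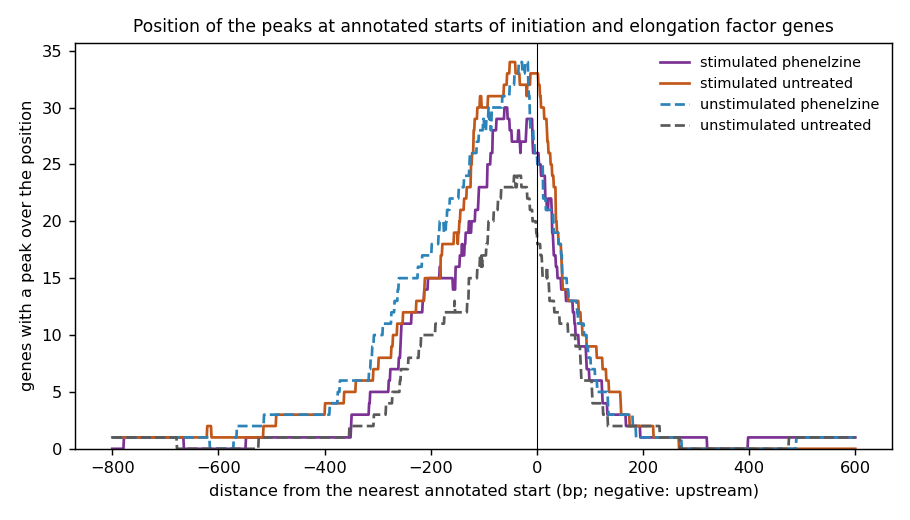
Number of initiation and elongation factor genes with a peak over each position (y axis) by distance from the nearest annotated start (x axis, bp, negative upstream) in the 4 lists. All 4 profiles are highest in the last stretch before the start, with median peak midpoints between −86 and −51 bp.

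Within each list the peaks of these genes ran from low to high rank, with medians above the middle. The median percentile of their strongest gene-end peak by −log10 q, among all peaks of the same list, was 63.1 in stimulated phenelzine, 78.6 in stimulated untreated, 69.9 in unstimulated phenelzine and 70.8 in unstimulated untreated cells. Over all genes so held the medians were 66.3, 68.2, 63.7 and 60.4. The lowest percentiles were 8.97, 11.8, 3.21 and 0.744. The highest −log10 q at any of these genes was 10.6, 12.2, 8.06 and 11.6, at Eif2s2, Eif2ak3, Eif3e and Eif3k. No such peak came near the maxima of the lists, which lay between 468 and 647. The values of one list are not comparable with those of another.

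**Figure D3:**
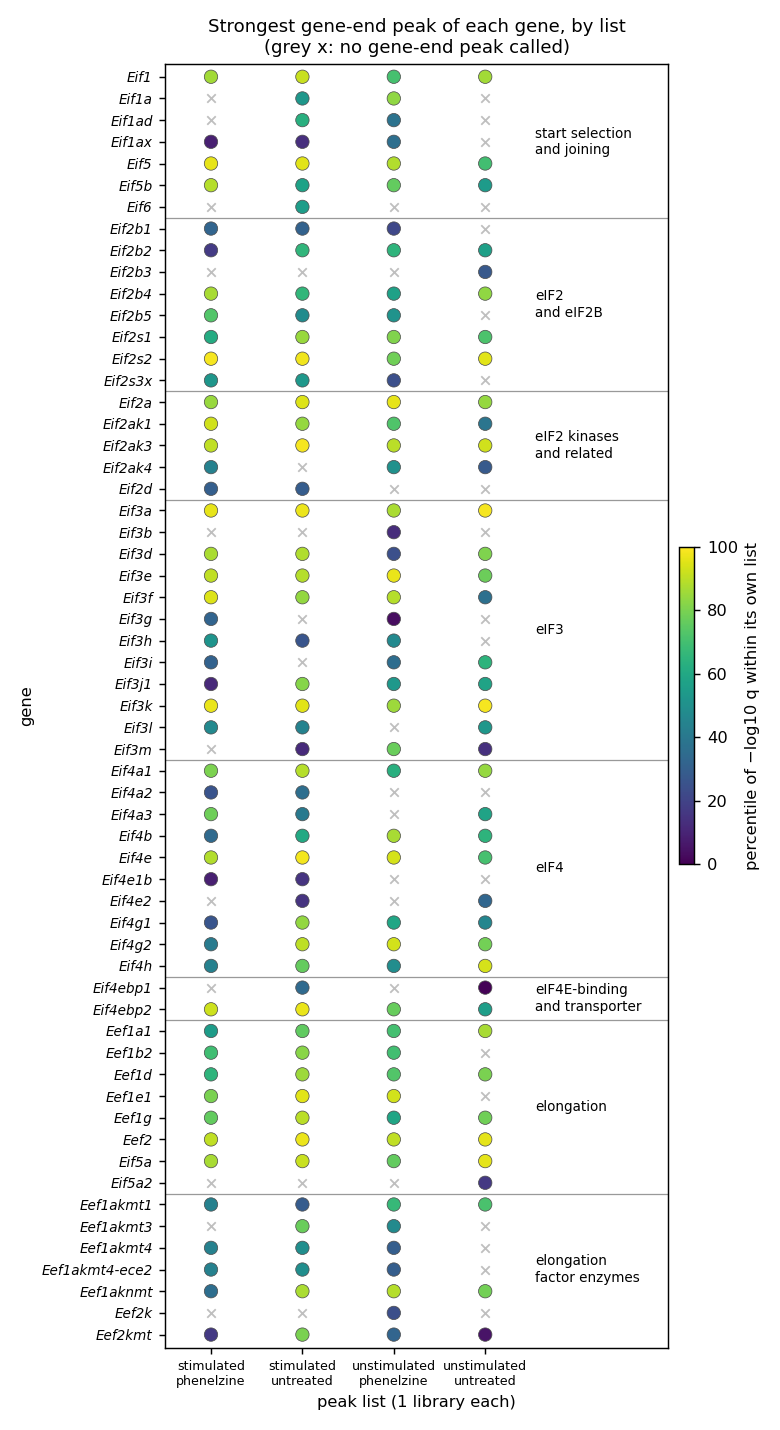
Each of the 59 genes with a gene-end peak (y axis, grouped by role) in the 4 lists (x axis), with the colour giving the percentile of −log10 q of its strongest gene-end peak among all peaks of that list and a grey x where no peak was called at a gene end. In all 4 lists 31 genes carry a dot, and 9 lack it in the unstimulated untreated column alone.

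For the counts by group that follow, at least 1 list held 34.9% of all genes and all 4 lists 17.7%. Among the factors that select the start codon and join the subunits, at least 1 list held 7 of 8 genes, and all 4 held Eif1, Eif5 and Eif5b. Eif5, which encodes the GTPase-activating protein for eIF2, lies on chromosome 12 from 111538101 to 111546753. Its start peak had fold enrichments of 7.21 (−log10 q 7.89) in stimulated phenelzine, 7.45 (8.83) in stimulated untreated, 6.16 (5.48) in unstimulated phenelzine and 5.47 (3.91) in unstimulated untreated cells. Eif1, the gene of the factor that guards against wrong start codons, had −log10 q 5.28, 7.27, 3.74 and 5.30 in that order. These were strong peaks of their lists, at percentiles from 69.8 to 96.2 for Eif5. Eif5b, which encodes the GTPase of subunit joining, had a peak that was nearest to the neighbouring gene Txndc9 in all 4 lists. A second peak just inside its own start was held by the stimulated phenelzine list (−log10 q 5.73) and the unstimulated untreated list (2.46).

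Other genes of the same group were held unevenly. Eif6, which encodes a factor that keeps the large subunit apart, had a gene-end peak in the stimulated untreated list alone, between positions 155819163 and 155819283 of chromosome 2 (fold 5.04, −log10 q 3.20). That peak was nearer to the gene BC029722. Eif1a, an eIF1A gene on chromosome 18, and Eif1ad, which encodes an eIF1A-like protein of other function, were held by the stimulated untreated and unstimulated phenelzine lists alone. The −log10 q of Eif1a was 3.08 and 4.81, and that of Eif1ad 3.71 and 2.25. These peaks also lay within 1 kb of a neighbouring gene, Tmed7 beside Eif1a and Banf1 beside Eif1ad. Eif1ax, the X-linked eIF1A gene, lacked a peak in the unstimulated untreated list alone and had −log10 q of 1.46, 1.63 and 2.19 in stimulated phenelzine, stimulated untreated and unstimulated phenelzine cells. Eif1b, a copy of Eif1, had none.

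All 8 genes of eIF2 and its exchange factor eIF2B had a gene-end peak in at least 1 list. Eif2s2, the gene of the beta subunit of eIF2, had the strongest. On chromosome 2 its peak reached fold 8.78 (−log10 q 10.6) in stimulated phenelzine, 8.77 (10.6) in stimulated untreated, 5.79 (4.33) in unstimulated phenelzine and 7.44 (7.35) in unstimulated untreated cells, at percentiles 98.6, 97.8, 78.4 and 95.4 of these lists. Eif2s1, which encodes the alpha subunit that stress kinases phosphorylate, had −log10 q 3.21, 5.80, 4.56 and 4.03, in a broad peak nearest to Atp6v1d. Eif2b2 and Eif2b4, subunits of the exchange factor, were also in all 4 lists.

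Eif2b1, Eif2b5 and Eif2s3x, the gamma subunit gene on the X chromosome, lacked a peak in the unstimulated untreated list alone. Eif2b1 had −log10 q 2.07 in stimulated phenelzine, 2.19 in stimulated untreated and 1.77 in unstimulated phenelzine cells. Eif2b5, the gene of the catalytic subunit, had 3.95, 2.83 and 2.75, and Eif2s3x had 2.80, 3.10 and 1.85. Eif2b3 was the reverse, with its single peak in the unstimulated untreated list between positions 117019366 and 117019465 of chromosome 4 (fold 4.57, −log10 q 2.21). None of these calls was above percentile 72.7 of its list.

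The eIF2 kinases, which shut down general initiation under stress, differed among themselves. Eif2ak3, the gene of the endoplasmic reticulum stress kinase PERK, had the highest −log10 q of all these genes in the stimulated untreated list. Its start peak on chromosome 6 had fold 6.50 (−log10 q 6.03) in stimulated phenelzine, 8.92 (12.2) in stimulated untreated, 6.35 (5.72) in unstimulated phenelzine and 6.86 (6.61) in unstimulated untreated cells. The 4 calls covered nearly the same bases, from −371 at the furthest to 59 bp past the start. Eif2ak1, the gene of the haem-regulated kinase, had −log10 q 6.61, 5.77, 3.86 and 2.54. Eif2ak4, the gene of the amino acid sensor GCN2, was missing from the stimulated untreated list alone and had −log10 q 2.45, 2.70 and 2.23 in stimulated phenelzine, unstimulated phenelzine and unstimulated untreated cells. No list held a gene-end peak for Eif2ak2, the gene of the double-stranded RNA sensor PKR, whose nearest peaks were over 14 kb away.

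Eif2a and Eif2d encode other proteins that can bring tRNA to the ribosome. Eif2a had −log10 q 5.09, 8.37, 7.80 and 5.08 in the stimulated phenelzine, stimulated untreated, unstimulated phenelzine and unstimulated untreated lists, from a peak that was nearest to the end of Serp1. Eif2d was held by the 2 stimulated lists alone, on chromosome 1, with fold 4.41 (−log10 q 2.02) in stimulated phenelzine and 4.37 (2.11) in stimulated untreated cells. Both calls covered the annotated start and overlapped each other, the second at percentile 29.0 of its list.

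For eIF3, the scaffold of the small-subunit complex, at least 1 list held 12 of 14 genes, and all 4 held 6. Eif3a, the gene of the largest scaffold subunit, had fold 7.60 (−log10 q 7.92) in stimulated phenelzine, 8.45 (9.82) in stimulated untreated, 6.25 (5.31) in unstimulated phenelzine and 9.56 (11.2) in unstimulated untreated cells. Eif3k had −log10 q 8.16, 8.87, 5.01 and 11.6 in that order, with the end of the kinase gene Map4k1 nearer to the peak. Eif3e, Eif3f, Eif3d and Eif3j1 were the others in all 4 lists. Their −log10 q ran from 1.51 for Eif3j1 in stimulated phenelzine to 8.06 for Eif3e in unstimulated phenelzine cells.

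The other eIF3 genes were held by fewer lists, each with a different gap. Eif3h lacked a peak in unstimulated untreated cells, with −log10 q 2.78 in stimulated phenelzine, 2.03 in stimulated untreated and 2.56 in unstimulated phenelzine cells. Eif3l lacked one in unstimulated phenelzine cells, with 2.57 in stimulated phenelzine, 2.68 in stimulated untreated and 3.07 in unstimulated untreated cells. Both genes encode eIF3 subunits whose calls were of low to middling rank. Eif3m lacked one in stimulated phenelzine cells, with 1.59 in stimulated untreated, 4.21 in unstimulated phenelzine and 1.82 in unstimulated untreated cells. Eif3i lacked one in stimulated untreated cells, with 2.05 in stimulated phenelzine, 2.15 in unstimulated phenelzine and 3.65 in unstimulated untreated cells. Over these 4 genes the highest call, of Eif3m in unstimulated phenelzine cells, was at percentile 77.1, and the others lay at or below percentile 64.8. Eif3g was held by the 2 phenelzine lists alone, with −log10 q 2.07 in stimulated and 1.27 in unstimulated cells. Eif3b, which encodes a core scaffold subunit, had a single weak peak in the unstimulated phenelzine list (fold 4.06, −log10 q 1.54). No list held a gene-end peak for Eif3c and Eif3j2. A single list held 9 to 11 of the 14 genes.

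Among the cap-binding and helicase genes of eIF4, at least 1 list held 10 of 13, and all 4 held 6. Eif4e, the gene of the cap-binding protein, has 2 annotated starts, and its peaks lay at the downstream one. They had fold 6.31 (−log10 q 5.61) in stimulated phenelzine, 8.41 (11.1) in stimulated untreated, 6.68 (6.56) in unstimulated phenelzine and 5.63 (3.96) in unstimulated untreated cells. Eif4g2, which encodes an eIF4G-like protein, had −log10 q 2.36, 6.82, 6.46 and 4.58. Eif4a1, the main helicase gene, Eif4b and Eif4h, whose products assist it, and the scaffold gene Eif4g1 were also in all 4 lists.

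Eif4a2, a second helicase gene, was held within 1 kb by the 2 stimulated lists alone, with fold 4.33 (−log10 q 1.91) in stimulated phenelzine and 4.52 (2.35) in stimulated untreated cells. These 2 calls touched but did not overlap: the first ran from chromosome 16 position 23107449 to 23107788, and the second from 23107349 to 23107448. The unstimulated untreated list had a peak 1082 bp from the gene, so with a window of 2 kb Eif4a2 was no longer held by the stimulated lists alone. Eif4e1b, a relative of Eif4e known from oocytes, also had a peak in the 2 stimulated lists alone (−log10 q 1.46 and 1.68), nearer to the end of Tspan17. Eif4e2, the gene of a cap-binding repressor, was held by the stimulated untreated list (1.68) and the unstimulated untreated list (2.36) alone. Eif4a3, which encodes a helicase of the exon junction complex, lacked a peak in unstimulated phenelzine cells alone and had −log10 q 4.36 in stimulated phenelzine, 2.52 in stimulated untreated and 3.28 in unstimulated untreated cells. Eif4g3, Eif4e3 and Eif4a3l1 had no gene-end peak.

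The 4 genes of eIF4E-binding proteins and the eIF4E transporter were held in 2 of 4 cases by at least 1 list. Eif4ebp2 had −log10 q 6.50 in stimulated phenelzine, 9.47 in stimulated untreated, 4.18 in unstimulated phenelzine and 3.18 in unstimulated untreated cells. Eif4ebp1, which encodes a repressor of eIF4E that mTORC1 inactivates, had a peak in the 2 untreated lists alone, with fold 4.48 (−log10 q 2.30) in stimulated and 3.86 (1.18) in unstimulated cells. The unstimulated call was at percentile 0.744, among the weakest of its list. The stimulated peak lay 913 bp and the unstimulated peak 950 bp from an end of the gene, so a window of 500 bp left both out. Eif4ebp3 and Eif4enif1 had none.

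Of the 10 genes grouped with the elongation factors, at least 1 list held 8, and all 4 held Eef1a1, Eef1d, Eef1g, Eef2 and Eif5a. The Eef1d peak was nearest to the neighbouring gene Tigd5 in all 4 lists. Eef1a1, which encodes the abundant carrier of aminoacyl-tRNA, had −log10 q 2.91, 4.76, 3.71 and 5.40 in stimulated phenelzine, stimulated untreated, unstimulated phenelzine and unstimulated untreated cells. Eif5a, whose product carries the hypusine modification, had 5.42, 7.33, 4.11 and 7.78. Eef2, the translocase gene, had its stronger peak past its 3′ end, between 390 and 436 bp downstream and nearest to the end of the kinase gene Dapk3. There −log10 q was 6.04, 9.93, 5.82 and 7.71. At the Eef2 start, shown above, the peaks were weaker, with 2.85, 3.06 and 2.03 in stimulated phenelzine, stimulated untreated and unstimulated phenelzine cells, and no peak was called there in unstimulated untreated cells. The presence of Eef2 in all 4 lists therefore came from the far end of the gene.

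Eef1e1, which encodes a protein of the multi-synthetase complex, and Eef1b2, an exchange factor gene of eEF1, lacked a peak in the unstimulated untreated list alone. Eef1e1 had fold 5.98 (−log10 q 4.56) in stimulated phenelzine, 8.13 (8.88) in stimulated untreated and 7.07 (6.46) in unstimulated phenelzine cells. These calls were at percentiles 79.9, 95.7 and 93.3 of their lists. Eef1b2 had −log10 q 3.71, 5.47 and 3.69 in the same lists, in peaks that also lay near Ndufs1. No other gene that 1 list alone lacked had percentiles this high in all of its 3 lists. Eif5a2, a relative of Eif5a with restricted expression, had a single peak in unstimulated untreated cells (fold 4.34, −log10 q 1.88). Eef1a2, the muscle and neuron form of Eef1a1, and Eefsec, the gene of the selenocysteine elongation factor, had none.

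The enzymes that act on elongation factors were held in 7 of 8 cases. Eef1aknmt, the gene of a methyltransferase of eEF1A, had −log10 q 2.18, 6.27, 5.53 and 4.59 in stimulated phenelzine, stimulated untreated, unstimulated phenelzine and unstimulated untreated cells. Eef2kmt, which encodes a methyltransferase of eEF2, had 1.65, 5.20, 2.05 and 1.50. Eef1akmt3 was held by the stimulated untreated list (4.90) and the unstimulated phenelzine list (2.59) alone, in a peak shared with the tRNA methyltransferase gene Mettl1. Eef1akmt4 and the readthrough gene Eef1akmt4-ece2 had the same calls, with −log10 q 2.45 in stimulated phenelzine, 2.89 in stimulated untreated and 1.98 in unstimulated phenelzine cells and none in unstimulated untreated cells. Eef2k, the kinase gene that blocks elongation under energy stress, had its single gene-end peak in unstimulated phenelzine cells (fold 4.32, −log10 q 1.84).

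The first comparison asked at which of these genes accessible ends were called after stimulation in untreated cells. The stimulated list alone held 16 of the 71 genes (22.5%) and the unstimulated list alone 4 (5.63%), while 36 were in both and 56 in either. Over all genes the shares were 8.15% and 1.94%, with 21.1% in both and 31.2% in either. Among genes in either list, the stimulated list alone held 28.6% (17.3 to 42.2) of the 56 Eif and Eef genes, against 26.1% of all genes, and the unstimulated list alone 7.14%, against 6.21%. The Eif and Eef genes thus lay near the background. The 16 included Eef1b2, Eef1e1, Eif2d, Eif4a2, Eif6, Eif1a and Eif3h, and the 4 were Eif2ak4, Eif2b3, Eif3i and Eif5a2. With each list reduced to its 6519 strongest peaks the counts were 10 for stimulated (14.1%, against 1081 of the 21627 genes) and 8 for unstimulated (11.3%, against 4.31%). Shares at this setting are over all genes, held or not. Any list then held 77.5% of the Eif and Eef genes, against 31.9% of all genes.

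In phenelzine-treated cells the same comparison gave similar counts on both sides, which moved apart with equal list sizes and at −log10 q 3 or more. The stimulated list alone held 5 genes (7.04%), Eif2d, Eif4a2, Eif4a3, Eif4e1b and Eif3l, and the unstimulated list alone 6 (8.45%), Eef1akmt3, Eef2k, Eif1a, Eif1ad, Eif3b and Eif3m, with 43 in both. Over all genes the shares were 5.54% and 3.72%, with 21.8% in both and 31.1% in either. Among genes in either list, the shares were 9.26% (3.08 to 20.3) and 11.1% (4.19 to 22.6) for the 54 Eif and Eef genes, against 17.8% and 12.0% of all genes. With equal list sizes the counts were 3 for stimulated (4.23%, against 4.69% of all genes) and 10 for unstimulated (14.1%, against 4.57%). At −log10 q 3 or more they were 3 (against 5.68% of all genes) and 9 (12.7%, against 3.72%). With a window of 500 bp they stayed 5 (7.04%, against 5.23%) and 6 (8.45%, against 3.51%). With factor subunits only they were 4 (7.84%, against 5.54%) and 3 (5.88%, against 3.72%). Shares at these settings are over all genes, held or not. With equal list sizes any list held 77.5% of the Eif and Eef genes, against 31.9% of all genes. At −log10 q 3 or more it was 60.6%, against 26.1%. Over both arms, 3 genes were in both stimulated lists and neither unstimulated list (4.23%, against 1.69% of all genes), namely Eif2d, Eif4a2 (not so with the 2 kb window) and Eif4e1b. The reverse was the case for 0 of 71 genes, which allows a share of up to 5.06%, against 0.305% of all genes. Among genes that any list held, the pattern of both stimulated lists alone was found for 3 of 59 Eif and Eef genes, against 365 of 7542 of all genes.

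Phenelzine was then set against no drug in unstimulated cells. The phenelzine list alone held 15 of the 71 genes (21.1%) and the untreated list alone 6 (8.45%), with 34 in both, and the shares over all genes were 5.90% and 3.38%, with 19.7% in both and 28.9% in either. Among genes in either list these were 27.3% (16.1 to 41.0) and 10.9% of the 55 Eif and Eef genes, against 20.4% and 11.7% of all genes. The 15 included 9 genes missing from the unstimulated untreated list alone, among them Eef1e1, Eef1b2 and Eif2b5. The 6 were Eif2b3, Eif3l, Eif4a3, Eif4e2, Eif4ebp1 and Eif5a2. At −log10 q 3 or more the counts were 7 for phenelzine (9.86%, against 5.25% of all genes) and 6 for untreated (8.45%, against 4.33%). With equal list sizes they were 13 for phenelzine (18.3%, against 4.67%) and 6 for untreated (8.45%, against 4.46%). Shares at these settings are over all genes, held or not. At −log10 q 3 or more any list held 60.6% of the Eif and Eef genes, against 26.1% of all genes. With equal list sizes it was 77.5%, against 31.9%.

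In stimulated cells the 2 lists held mostly the same genes. The phenelzine list alone held 3 genes (4.23%), Eif2ak4, Eif3g and Eif3i, and the untreated list alone 7 (9.86%), Eef1akmt3, Eif1a, Eif1ad, Eif3m, Eif4e2, Eif4ebp1 and Eif6, with 45 in both. Shares over all genes were 3.40% and 5.27%, with 24.0% in both and 32.6% in either. Among genes in either list they were 5.45% (1.14 to 15.1) and 12.7% (5.27 to 24.5) of the 55 Eif and Eef genes, against 10.4% and 16.1% of all genes. At −log10 q 3 or more the counts were 2 for phenelzine (2.82%, against 3.44% of all genes) and 14 for untreated (19.7%, against 6.74%). With equal list sizes they were 6 (8.45%, against 4.54%) and 8 (11.3%, against 4.91%). Shares at these settings are over all genes, held or not. At −log10 q 3 or more any list held 60.6% of the Eif and Eef genes, against 26.1% of all genes. With equal list sizes it was 77.5%, against 31.9%. Over both stimulation states, Eif3g was the single gene in both phenelzine lists alone (1.41%, against 0.735% of all genes). Eif4e2 and Eif4ebp1 (not so with the 500 bp window) were the 2 in both untreated lists alone (2.82%, against 0.550%). Among genes that any list held, these patterns were found for 1 and 2 of 59 Eif and Eef genes. For all genes they were found for 159 and 119 of 7542.

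**Figure D4:**
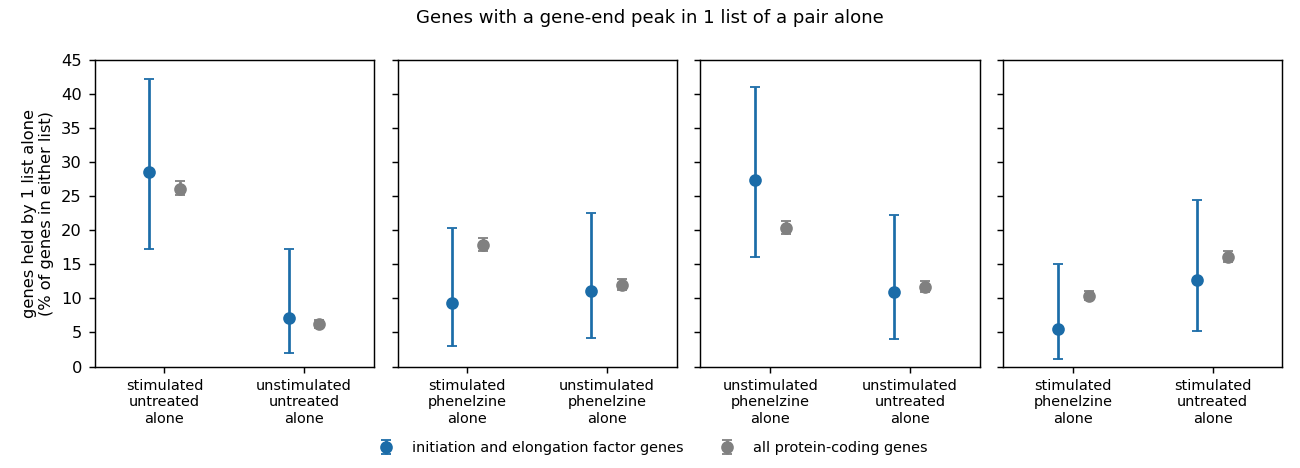
Genes held by 1 list of a pair alone as a share of genes in either list (y axis, %) for the 4 comparisons, with initiation and elongation factor genes beside all protein-coding genes and exact 95% intervals for counting error. The share of all genes lies within the interval of the Eif and Eef genes in each comparison, as with 28.6% (17.3 to 42.2) against 26.1% for the stimulated untreated list alone.

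The most common uneven pattern was absence from the unstimulated untreated list alone, with 9 genes (12.7%, 5.96 to 22.7), against 2.83% of all genes. These were Eef1akmt4, Eef1akmt4-ece2, Eef1b2, Eef1e1, Eif1ax, Eif2b1, Eif2b5, Eif2s3x and Eif3h. Eef1akmt4 and Eef1akmt4-ece2 share the same region. Among genes that any list held, the pattern was found for 9 of 59 Eif and Eef genes, against 611 of 7542 of all genes. Shares in this paragraph are over all genes, held or not, and any list held 83.1% of the Eif and Eef genes, against 34.9% of all genes. The unstimulated untreated list was also the shortest, and the part of its length in this pattern was not tested. Absence from the stimulated phenelzine list alone was found for 1 gene, Eif3m (1.41%, against 1.08% of all genes). From the stimulated untreated list alone 2 genes were absent (2.82%, against 0.573%), Eif2ak4 and Eif3i, and from the unstimulated phenelzine list alone another 2 (2.82%, against 1.77%), Eif3l and Eif4a3. A single list held Eif6 (stimulated untreated, 1.41%, against 2.55%), Eef2k and Eif3b (unstimulated phenelzine, 2.82%, against 1.25%) and Eif2b3 and Eif5a2 (unstimulated untreated, 2.82%, against 0.670%). The stimulated phenelzine list alone held 0 of these genes, against 1.70% of all genes. Of the pairs that share no condition, the stimulated untreated and unstimulated phenelzine lists alone held 3 genes (4.23%, against 1.09%), Eef1akmt3, Eif1a and Eif1ad, and the other pair 0, against 0.388%. The 4 comparisons share lists with each other, so their counts are not independent.

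The 12 genes without a gene-end peak in any list (16.9%, against 65.1% of all genes) were Eef1a2, Eef1akmt2, Eefsec, Eif1b, Eif2ak2, Eif3c, Eif3j2, Eif4a3l1, Eif4e3, Eif4ebp3, Eif4enif1 and Eif4g3. Some of these are gene copies or forms of other tissues, such as Eef1a2 and Eif4a3l1, while Eif3c encodes a core subunit of eIF3 and Eif4g3 a scaffold of the cap-binding complex. The nearest peak to an end of Eif4enif1 was 2374 bp away in stimulated phenelzine, 2420 in stimulated untreated, 2562 in unstimulated phenelzine and 3112 bp in unstimulated untreated cells. For Eif3c the distances were 43099, 43131, 40821 and 43144 bp.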

How the data were processed

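ATAC-seq peak lists of 4 libraries were used, 1 per condition. Tools named per the submitters' processing notes were Bowtie2 2.2.5, Trimmomatic 0.33, MACS2, HOMER and Picard, with the build mm10. Other versions and all settings: not given in the sources used here. The authors deposited broad peaks per library, each with a score, a fold enrichment as a ratio, and −log10 p and −log10 q. The deposited score was 10 times −log10 q, rounded down, in 99.98% to 100% of peaks. Peak names carry the tag less120; if it means short fragments, the lists describe those alone.

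Genes were those of the RefSeq table for GRCm38.p6. Strand and promoters came from the RefSeq promoter table, which was matched for 55 of the 71 genes. Peaks were counted within 1 kb of either gene end with Python 3.11.15, numpy 2.4.6, pandas 2.3.3 and scipy 1.17.1. The counting step was tested on simulated data. With 1 library per condition no p-value was made. Intervals of shares are exact 95% ones (Clopper-Pearson) and cover counting error only. From the ribosomal protein symbols, 12 names of kinases and partners were left out. Alternatives were a −log10 q minimum, equal list sizes, other windows, midpoints, nearest gene ends and factor subunits. The genes given with values include the 2 with the highest −log10 q in each role group, those held by both lists of 1 condition alone, by 1 list or by 3 lists. Others, such as Eef1a1, Eif5a, Eif2ak1, Eif1a, Eif1ad and Eef1akmt3, are given outside that rule. Members and lists were chosen with earlier results of these data known.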

Additional observations from a re-analysis of the deposited data

Results flagged for a closer look

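The calls of stimulated and unstimulated cells differed in opposite directions in phenelzine-treated and untreated cells at 3 genes, Eif1a, Eif1ad and Eef1akmt3. Each had a gene-end peak in stimulated but not unstimulated untreated cells, and in unstimulated but not stimulated phenelzine-treated cells. The difference was not tested, since each condition has 1 library. The same pair of lists alone held 235 of all genes (1.09%). Among genes that any list held, this was 3 of 59 Eif and Eef genes, against 235 of 7542 of all genes.

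Away from the gene ends, which no comparison above used, 5 peaks lay inside the bodies of these genes over the 4 lists. Eef2k had 1 in each of 3 lists, with −log10 q 1.43 in stimulated phenelzine, 2.61 in stimulated untreated and 2.21 in unstimulated untreated cells, 469 to 502 bp from an annotated inner start. The fourth list, unstimulated phenelzine, is the one with the gene-end peak of Eef2k. In Eif4g3 a peak of −log10 q 1.50 in stimulated untreated cells lay 18 bp from an annotated start. Eif2ak3 had a peak of −log10 q 1.46 in stimulated phenelzine cells, 27745 bp from its start.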

How the results depend on the processing

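Over 18 results and 14 alternative settings, 129 of 146 values stayed within 1.5 times the reported count or within the 95% interval of the reported median. Shares of all genes at the same setting follow each count, except where a library was left out. These shares are over all genes, held or not. With −log10 q of at least 3, unstimulated phenelzine held 31 genes (14.9%), stimulated phenelzine 25 (16.9%) and all 4 lists 18 (7.78%), and the counts held by 1 list alone were 14 (6.74%) for stimulated untreated and not stimulated phenelzine, 3 (5.68%) for stimulated phenelzine and not unstimulated phenelzine, and 7 (5.25%) for unstimulated phenelzine and not unstimulated untreated. With equal list sizes they were 6 (4.54%) for stimulated phenelzine and not stimulated untreated, 3 (4.69%) for stimulated and 10 (4.57%) for unstimulated phenelzine, and 10 (1081 of 21627 genes) for stimulated and 8 (4.31%) for unstimulated untreated. With factor subunits only, 4 (5.27%) were held by stimulated untreated and not stimulated phenelzine, 3 (3.72%) by unstimulated phenelzine and not stimulated phenelzine, and 9 (5.90%) by unstimulated phenelzine and not unstimulated untreated. With annotated starts only, an alternative chosen after seeing the data, the first 2 of these were 4 (5.45%) and 3 (3.91%), and unstimulated untreated and not stimulated untreated held 2 (2.01%). Leaving out each library or the readthrough gene was also chosen after seeing the data. Without the unstimulated untreated library, 40 genes were in all of the other lists (31 in all 4 lists and 9 missing from that list alone). Among all genes, 3829 (17.7%) were in all 4 lists and 611 (2.83%) were missing from that list alone. Read depth is unknown, and its part in missing calls was not tested.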
